A study of Mus musculus with 2 samples.

Results

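The mir-106b-25 polycistron is made up of the microRNA genes Mir106b, Mir93 and Mir25, which lie within the gene Mcm7 on mouse chromosome 5. The 3 genes were found by symbol among the 1973 microRNA genes counted, and all 3 had reads in both libraries. Small RNA of fewer than 30 nt was sequenced from the midbrain of B6NCrl mouse embryos at embryonic day 10.5, when most cells of the neural tube are still dividing progenitors of the neuroepithelium. The 2 libraries are biological replicates of 1 group of healthy embryos, made from pools of 69 (replicate 1) and 51 (replicate 2) embryos of both sexes. Each library is hence an average over many animals, and the series has no second tissue, age or treatment to set it against.

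A polycistron is a primary transcript that carries several microRNA hairpins. The nuclease Drosha cuts the hairpins out, Dicer removes their loops, and the mature microRNA of about the length sequenced here is loaded into an Argonaute protein, where bases 2 to 8, the seed, pair with target messenger RNAs. Mcm7 encodes a subunit of the helicase that unwinds DNA at replication origins, and its transcription follows the cell division cycle. The mir-106b-25 polycistron is a paralog of the Mir17hg polycistron, which a noncoding transcript on another chromosome carries from Mir17 to Mir92-1, and of mir-106a-363 on the X chromosome. The 3 polycistrons are known from dividing embryonic cells, where members of their families repress cell cycle inhibitors such as Cdkn1a and the pro-apoptotic gene Bcl2l11, and mir-106b-25 has been studied in adult neural stem cells.

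The hairpins follow each other on the minus strand in the order of transcription Mir106b, Mir93 and Mir25 (mm10, 1-based coordinates). Mir106b (ENSMUSG00000065514.1) lies at chr5:138165737-138165818, Mir93 (ENSMUSG00000065527.1) at chr5:138165523-138165610 and Mir25 (ENSMUSG00000065394.1) at chr5:138165321-138165404. All 3 fall into intron 13 of the principal Mcm7 transcript, which has 15 exons, and together span 498 of the 748 bases of that intron. Mir106b starts 91 bases into the intron, 126 bases separate it from Mir93, 118 bases separate Mir93 from Mir25, and 159 bases follow Mir25 before the next exon. No annotated gene overlaps them on the opposite strand. Of the 10 annotated Mcm7 transcripts, 2 hold all 3 hairpins in an intron, the principal one among them.

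**Figure D1:**
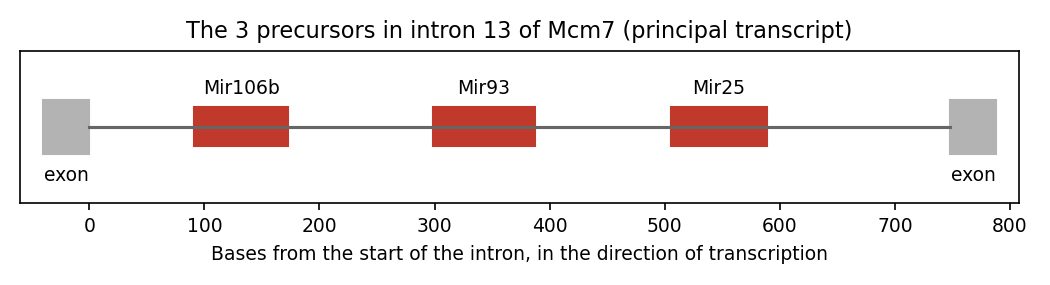
Position of the 3 precursors (red boxes) in intron 13 of the principal Mcm7 transcript, with the x axis in bases from the start of the intron in the direction of transcription and the ends of the flanking exons in grey (not drawn to their length). The precursors are 82, 88 and 84 bases long and are spread over 498 bases of the 748-base intron.

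The hairpins are shown because the counts were made per hairpin and not per mature arm. In each RefSeq hairpin (GRCm38.p6, minus strand, 5′ to 3′) the capitals mark the 2 annotated mature arms.
Mir106b: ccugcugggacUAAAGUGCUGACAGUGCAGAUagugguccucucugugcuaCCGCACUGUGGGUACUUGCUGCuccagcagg
Mir93: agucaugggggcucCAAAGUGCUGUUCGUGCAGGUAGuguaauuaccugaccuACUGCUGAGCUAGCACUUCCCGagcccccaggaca
Mir25: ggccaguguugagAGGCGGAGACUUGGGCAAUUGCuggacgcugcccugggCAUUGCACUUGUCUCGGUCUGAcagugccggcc
The arm known as the main product is the 5′ arm of Mir106b and Mir93 and the 3′ arm of Mir25. Minimum free energies predicted by RNAfold were -41.0 kcal/mol for Mir106b, -46.3 kcal/mol for Mir93 and -35.9 kcal/mol for Mir25, with 73.2%, 75.0% and 69.0% of the bases paired. The Mir25 hairpin had the highest G and C content, 63.1% against 57.3% in Mir106b and 55.7% in Mir93. No stretch of 20 bases of the 3 hairpins occurred in any other of the 1005 mouse hairpins of the RefSeq table, so a read of that length or longer from these genes had no exact second locus there.

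By their seeds the members fall into separate families. The main arms of Mir106b and Mir93 share their seed with those of Mir17 and Mir20a of the Mir17hg polycistron, Mir106a and Mir20b of mir-106a-363, and Mir6383. The mature sequences are printed with the seed in capitals, to show that these microRNAs differ from one another outside it.
miR-106b-5p: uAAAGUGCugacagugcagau
miR-93-5p: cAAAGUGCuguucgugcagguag
miR-17-5p: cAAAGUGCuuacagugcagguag
miR-20a-5p: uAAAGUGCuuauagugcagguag
miR-106a-5p: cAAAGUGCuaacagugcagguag
miR-20b-5p: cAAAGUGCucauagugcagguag
miR-6383: uAAAGUGCugugucacggaca
Aligned from the first base without gaps, miR-106b-5p had 18 of 21 bases in common with each of miR-17-5p, miR-20a-5p and miR-106a-5p, but 16 of 21 with miR-93-5p of its own polycistron. miR-93-5p was nearest to miR-20b-5p, with 20 of 23 bases in common.

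The main arm of Mir25 has the seed of the miR-92 family, which includes Mir92-1 and Mir92-2 of the paralog polycistrons, Mir363, Mir92b, Mir32 and Mir367.
miR-25-3p: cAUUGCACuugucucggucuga
miR-92a-3p: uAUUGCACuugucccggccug
miR-92b-3p: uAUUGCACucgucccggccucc
miR-363-3p: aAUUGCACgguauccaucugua
miR-32-5p: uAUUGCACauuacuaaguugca
miR-367-3p: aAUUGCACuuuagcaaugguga
miR-25-3p matched miR-92a-3p at 18 of 21 bases, miR-92b-3p at 16 of 22 and miR-363-3p at 9 of 22. miR-92a-3p is encoded identically by Mir92-1 and Mir92-2, and the other mature sequences printed here each occur at 1 locus of the table.

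The libraries held 7810040 and 9423767 reads, of which 3297835 (42.2%) and 3682410 (39.1%) were assigned to a microRNA gene. Multiply mapped reads, 30.9% and 29.5% of the libraries, are in no gene's count. Levels are given as CPM, reads per 1000000 gene-assigned reads, and are not divided by length, because each read is taken to stand for a whole mature microRNA. The ease with which different microRNAs enter a library was not measured, so a difference in CPM between genes is a difference in reads. A list of 12 symbols of neural microRNAs took in Mir9 and Mir92b genes, known from progenitors, and Mir124 and Mir128 genes, known from neurons, with the Mir124 genes under both of their spellings. Of these symbols 8 were among the counted genes, 5 of them Mir124 or Mir128 genes, and 6 reached 10 reads in each of the libraries. The 8 genes held 2.15% and 2.55% of the gene-assigned reads, most of it from Mir92b, while Mir9-3 had 452 and 246 reads and Mir9-1 is not among the counted genes. The endothelial Mir126a held 2.64% and 3.08%, the mesenchyme list 1.27% and 1.02%, the epithelium list 0.252% and 0.343%, the leukocyte list 0.0588% and 0.0581%, and the erythroid list 0.0404% and 0.0374%. Of the 3 leukocyte symbols 2 were among the counted genes, and Mir142 was not. Mir142b, which is not on the list, had 2250 and 3184 reads. Markers known from several cell types were thus present, and their part in the levels of the members was not tested. Mir9, Mir124 and Mir128 are listed as several gene copies, whose reads can be lost to multiple mapping, by an amount not measured. The shares of the lists hence do not rank the cell types.

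Mir93 was the most abundant member of the polycistron, Mir106b reached about the same order of magnitude, and Mir25 was far below both. Mir93 had 67327 reads in replicate 1 and 73645 in replicate 2, or 20416 and 19999 CPM, a mean of 20207 ± 294 CPM (SD, n = 2). Mir106b had 45729 and 48639 reads, or 13866 and 13208 CPM, a mean of 13537 ± 465 CPM. Mir25 had 3370 and 4083 reads, or 1022 and 1109 CPM, a mean of 1065 ± 61.4 CPM. The replicates lay close together for each member, and the levels of the 3 members did not overlap. In a bulk sample, fewer cells that express a microRNA and less of it per cell cannot be told apart.

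As shares of the gene-assigned reads, Mir93 made up 2.04% of replicate 1 (95% Wilson interval 2.03 to 2.06%) and 2.00% of replicate 2 (1.99 to 2.01%). Mir106b made up 1.39% (1.37 to 1.40%) and 1.32% (1.31 to 1.33%). Mir25 made up 0.102% (0.0988 to 0.106%) and 0.111% (0.108 to 0.114%). Together the members held 3.48% ± 0.0698 of the reads. These intervals cover counting error only, since the reads carry no molecular identifiers and may include copies of 1 molecule.

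Every read of the members lay on what was taken as the strand of the gene. The opposite strand had 0 of 45729 and 0 of 48639 reads at Mir106b, which allows a share of up to 0.00656% and 0.00617%. At Mir93, 0 of 67327 and 0 of 73645 reads allow up to 0.00446% and 0.00407%. At Mir25, 0 of 3370 and 0 of 4083 reads allow up to 0.0890% and 0.0735%.

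Among the 1973 counted genes Mir93 ranked 11 by mean CPM, Mir106b ranked 15 and Mir25 ranked 105. The gene just above Mir93 was Mir99b, with 25415 and 21177 CPM, both above the values of Mir93. Just below stood Mir30e, with 22175 and 16369 CPM, and these values enclosed those of Mir93. Mir106b stood between Mir130b, with 13463 and 15008 CPM, and its paralog Mir106a, with 10923 and 14354 CPM. The values of both neighbours overlapped those of Mir106b, so their order is not set beyond the spread of the replicates. Mir25 stood between Mir34c, with 1121 and 1081 CPM, and Mir302c, with 654 and 1386 CPM, and neither differed from it beyond that spread.

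The genes with the most similar values in both libraries, by the distance of their log2 CPM, were Mir130b, Mir30a and Mir322 for Mir106b (distances 0.19, 0.25 and 0.32). They were Mir30e, Mir99b and Mir92b for Mir93 (0.31, 0.33 and 0.35) and Mir433, Mir34c and Mir434 for Mir25 (0.10, 0.14 and 0.15). With only 2 libraries, this likeness is mainly one of level. None of these genes belongs to the polycistron.

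Intronic microRNAs of protein-coding genes form a class of their own, in which the hairpin can be excised from the pre-messenger RNA of the host. The class was set here by position alone, and host transcripts were not measured. Of the 738 counted genes in a same-strand intron of a protein-coding gene, 410 had reads. Mir93 was the fifth of them and Mir106b ranked 8, while Mir25 ranked 36. The genes above Mir93 were Mir335 in Mest, Mir126a in Egfl7, Mir26b in Ctdsp1 and Mir99b in Spaca6. The Mcm7 intron supplied 8.85% and 8.24% of the reads of this class. These ranks and shares too hold for uniquely mapped reads, which can leave genes with copies at other loci too low.

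Within the polycistron, Mir93 held 57.8% of the reads in replicate 1 (95% Wilson interval 57.5 to 58.1%) and 58.3% in replicate 2 (58.0 to 58.6%). Mir106b held 39.3% (39.0 to 39.6%) and 38.5% (38.2 to 38.8%). Mir25 held 2.89% (2.80 to 2.99%) and 3.23% (3.14 to 3.33%). The 3 hairpins of the intron thus had very unequal numbers of reads, in nearly the same proportions in both pools. The primary transcript was not measured.

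Mir93 had 1.47 times the reads of Mir106b in replicate 1 (95% counting interval 1.45 to 1.49) and 1.51 times in replicate 2 (1.497 to 1.532). It had 19.98 times the reads of Mir25 in replicate 1 (19.3 to 20.7) and 18.04 times in replicate 2 (17.5 to 18.6). Mir106b had 13.6 times (13.1 to 14.1) and 11.9 times (11.5 to 12.3) the reads of Mir25. Mir25, the last hairpin of the intron, was the lowest in both libraries.

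Ranges of this size also occurred in other groups of neighbouring microRNA genes. Of 42 groups of genes on 1 strand at most 10 kb apart, taking genes that had 10 or more reads in each library, the median ratio of the highest to the lowest member by mean CPM was 23.8, and 21 groups had a larger ratio than the 18.97 of mir-106b-25. The groups held from 2 to 30 genes, and a larger group can have a larger ratio. Genes with copies at other loci can also lose reads to multiple mapping. This widens the ratio where the lowest member loses them and narrows it where the highest does. Among the 5 groups of 3 genes, the median ratio was the 18.97 of mir-106b-25 itself. By summed CPM of uniquely mapped reads mir-106b-25 ranked 4 of the 42.

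The paralogs were read against the members at the positions that correspond by order and seed. The Mir17hg polycistron held 13.1% and 13.5% of the gene-assigned reads, mir-106b-25 held 3.53% and 3.43%, and mir-106a-363 held 2.56% and 3.45%. The reads of the Mir17hg polycistron were 3.70 times those of mir-106b-25 in replicate 1 (95% counting interval 3.68 to 3.73) and 3.93 times in replicate 2 (3.91 to 3.96). Those of mir-106a-363 were 0.724 times (0.718 to 0.730) and 1.01 times (0.998 to 1.01). The Mir17hg polycistron was thus the most abundant of the 3 polycistrons in both pools, while the order of mir-106b-25 and mir-106a-363 differed beyond counting error in replicate 1 and not in replicate 2. These sums hold uniquely mapped reads only. Mir92-1 and Mir92-2, and likewise Mir19b-1 and Mir19b-2, share a stretch of 20 bases and can lose reads to multiple mapping, which no member of mir-106b-25 does by that measure. The sums of both paralogs can therefore be too low, and the order of mir-106b-25 and mir-106a-363 in replicate 1 holds for uniquely mapped reads.

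At the leading position stand Mir106b, Mir17 and Mir106a. Mir17 had 79342 and 80747 CPM, and its reads were 5.72 and 6.11 times those of Mir106b. Mir106a had 10923 and 14354 CPM, and its reads were 0.788 times those of Mir106b in replicate 1 and 1.09 times in replicate 2. Mir106b was hence below Mir17 in both libraries, and its order with Mir106a changed between them.

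At the next corresponding position stand Mir93, Mir20a and Mir20b. Mir20a had 31384 and 32514 CPM, and its reads were 1.54 and 1.63 times those of Mir93. Mir20b had 6186 and 7712 CPM, so that Mir93 had 3.30 and 2.59 times its reads. Mir93 lay between its counterparts in both libraries.

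The balance of these positions differed between the polycistrons. Mir20a had 0.396 and 0.403 times the reads of Mir17 upstream of it, and Mir20b had 0.566 and 0.537 times those of Mir106a. Mir93 exceeded Mir106b by the 1.47 and 1.51 times given above. The leading hairpin therefore had more reads than its partner in both paralogs, and fewer in mir-106b-25, in each library. None of these 6 genes shares a stretch of 20 bases with another hairpin of the table. That search was for exact matches only. The printed main arms of Mir17 and Mir106a, and of Mir20a and Mir20b, are nearly identical. The mismatches allowed in alignment are not known, so reads exchanged or lost between these paralogs were not measured.

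Mir25 corresponds to Mir92-1, Mir92-2 and Mir363, the members with the miR-92 seed. Mir92-1 had 8358 and 9508 CPM and Mir363 had 6336 and 9351 CPM, with 8.18 and 8.58 times and 6.20 and 8.43 times the reads of Mir25. Mir92-2 had 1361 and 2171 CPM, with 1.33 and 1.96 times the reads of Mir25. Mir25 was below all 3 in both libraries. Mir92-1 and Mir92-2 encode the same main arm, reads of which map to both loci and would be counted at neither, so their values are uncertain and the gap to Mir25 may be understated.

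**Figure D2:**
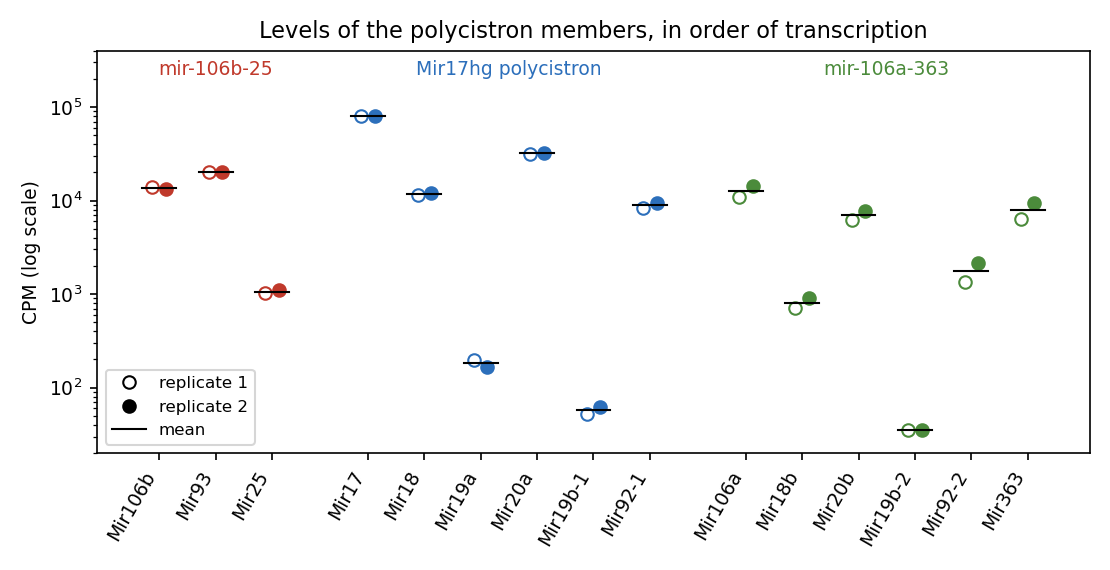
CPM (log scale) of the members of the 3 polycistrons, in order of transcription from left to right, with open circles for replicate 1, filled circles for replicate 2 and lines for the mean. Mir93 stands above Mir106b within mir-106b-25, whereas by uniquely mapped reads, which leave out those shared by Mir92-1 and Mir92-2 or by Mir19b-1 and Mir19b-2, the leading member is the highest of the Mir17hg polycistron and of mir-106a-363, and Mir25 is the lowest member of its polycistron at 1022 and 1109 CPM.

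Because the members share seeds with genes elsewhere, their reads were also set against all counted genes of each seed family. The family of Mir106b and Mir93 held 16.2% and 16.9% of the gene-assigned reads. Mir17 supplied 48.9% and 47.9% of the family's reads and Mir20a 19.4% and 19.3%. Mir93 was the third with 12.6% and 11.9%, and Mir106b held 8.55% and 7.84%. Mir106a held 6.74% and 8.52%, Mir20b held 3.82% and 4.58%, and Mir6383 had 0 reads in both libraries, which allows up to 0.000561% and 0.000483% of the family. Mir106b and Mir93 together gave 20.4% ± 1.02 of the family (SD, n = 2), and Mir17 and Mir20a together held more. These are sums over whole genes, with both arms of every hairpin, and not counts of reads that carry the seed.

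The family of Mir25 held 3.87% and 4.79% of the gene-assigned reads. It was led by Mir92b, known from neural progenitors, with 54.9% and 52.9% of the family's reads. Mir92-1 held 21.6% and 19.9%, Mir363 held 16.4% and 19.5%, and Mir92-2 held 3.52% and 4.53%. Mir25 held 2.64% (95% Wilson interval 2.56 to 2.73%) and 2.32% (2.25 to 2.39%). Mir32, in an intron of Tmem245, held 0.916% and 0.806%, and Mir367 of the mir-302 cluster had 13 and 25 reads. By whole-gene reads Mir25 stood near the low end of its family. Multiply mapped reads, which would include those of miR-92a-3p, are not in these sums.

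**Figure D3:**
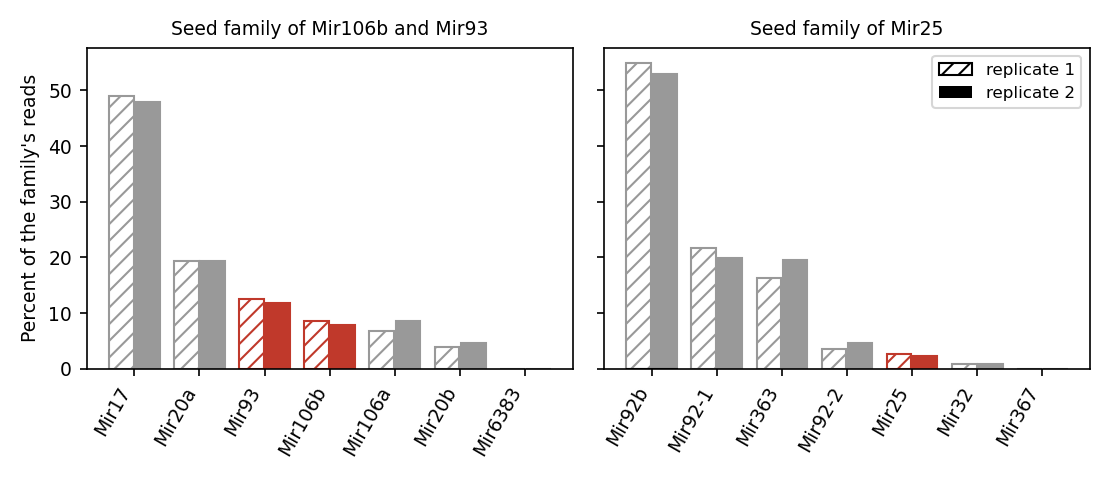
Percent of the reads of each seed family (y axis) that came from each counted gene, with hatched bars for replicate 1, filled bars for replicate 2 and the members of mir-106b-25 in red. By mean share, Mir93 and Mir106b come next after Mir17 and Mir20a in their family, and Mir25 with 2.64% and 2.32% is among the low bars of its own. In replicate 2 Mir106a (8.52%) stood above Mir106b (7.84%).

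The members differed little between the pools. On the log2 scale, with library sizes scaled by TMM, the ratio of replicate 2 to replicate 1 was -0.02 for Mir93 (95% counting interval -0.04 to -0.01), -0.07 for Mir106b (-0.08 to -0.05) and 0.12 for Mir25 (0.06 to 0.19). In linear terms these are ratios of 0.983, 0.956 and 1.09. The sign for Mir93 depended on the scaling, as the ratio was 1.01 with DESeq2 size factors.

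A comparison of the 2 libraries, not of conditions, by an exact binomial test of their reads placed all 3 members beyond counting error, with Benjamini-Hochberg adjusted p of 0.00317 for Mir93, 1.6e-11 for Mir106b and 0.000774 for Mir25. With DESeq2 size factors the exact binomial test no longer called Mir93 (adjusted p = 0.326). The test called 241 of 485 genes (49.7%), and 95.3% of the 107 genes of mean CPM 1000 or more. A call at this depth therefore marks nothing particular to the members, since reads are taken as independent and differences of a few percent pass. The median size of the log2 ratio among those 107 genes was 0.23, and that of the members was 0.07. Only 1 of the 107 genes had a log2 ratio closer to 0 than Mir93, 12 were closer than Mir106b and 28 closer than Mir25. These numbers were 1, 6 and 35 with DESeq2 size factors and 3, 17 and 27 with total counts.

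Ratios between members do not depend on the scaling. The ratio of Mir93 to Mir106b was 1.03 times as high in replicate 2 as in replicate 1 (95% counting interval 1.01 to 1.05). The ratio of Mir25 to Mir106b was 1.14 times as high (1.09 to 1.19), and that of Mir25 to Mir93 was 1.11 times as high (1.06 to 1.16). Mir25 hence was slightly higher in replicate 2 relative to both neighbours, by more than counting error. With 1 library per pool, differences in preparation and differences between pools cannot be told apart.

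The log2 ratios of the 3 members spanned 0.19, against a median span of 0.33 over the 42 groups of neighbouring genes, 13 of which had a smaller span. A span can grow with the number of genes and with low counts, and the groups differ in both. In the Mir17hg polycistron the binomial test called 4 of 6 genes higher and 1 lower in replicate 2, with a median log2 ratio of 0.06. In mir-106a-363 it called 5 of 6 higher and none lower, with a median of 0.37. The corresponding counts for mir-106b-25 were 1 higher and 2 lower, with a median of -0.02, and over all 485 genes tested 23.1% were higher and 26.6% lower.

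By summed reads the 3 polycistrons thus did not keep their proportions between the pools. The sums hold uniquely mapped reads of members with different seeds. Among genes with the seed of Mir106b and Mir93, the log2 ratio was 0.03 for Mir17, 0.06 for Mir20a, 0.40 for Mir106a and 0.32 for Mir20b. Within mir-106a-363 the ratio was highest for Mir92-2 (0.68) and Mir363 (0.57), which have the miR-92 seed. Relative to mir-106b-25, the summed reads of mir-106a-363 were 1.39 times as high in replicate 2 as in replicate 1 (95% counting interval 1.37 to 1.41), and those of the Mir17hg polycistron 1.06 times (1.05 to 1.07). The share of mir-106b-25 in the reads of all 3 polycistrons was 18.4% in replicate 1 and 16.8% in replicate 2.

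**Figure D4:**
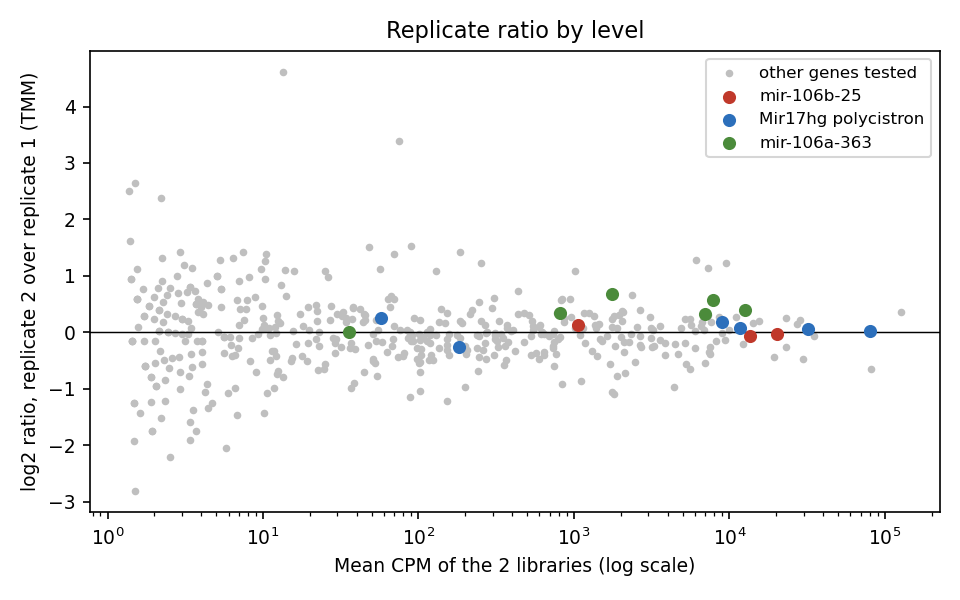
log2 ratio of replicate 2 over replicate 1 with TMM scaling (y axis) against mean CPM on a log scale (x axis) for the 485 genes tested, with the 3 polycistrons in colour and other genes in grey. The members of mir-106b-25 lie near 0, from -0.07 to 0.12, while the abundant members of mir-106a-363 lie above it.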

How the data were processed

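The authors deposited raw read counts per microRNA gene, counted in each library from mm10 alignments on GENCODE M4, per the text files deposited beside the counts. Aligner and trimming were not given in the sources used here. The first of 3 unnamed count columns equals the sum of the others in every gene row and was used. The second was taken as the gene's strand, which no source states. The 4 rows that name no gene stayed out of the gene totals.

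Identifiers were matched without version to GENCODE M21 (GRCm38, the build of mm10; 1894 of 1973 matched), and 927 genes to RefSeq hairpins of GRCm38.p6. Members, lists and tests were chosen with earlier results of these data known. Named genes are the members, both paralog polycistrons, both seed families and, per member, the 3 genes nearest in log2 CPM (0.5 added). Seed families are all counted genes with the seed of the member's known main arm on a mature sequence. The pools are separate samples, and SDs are over these 2 libraries. The exact binomial test (two-sided, at least 10 reads in sum, level 0.05) used TMM-scaled library sizes (edgeR 4.0.16), 0.5 added reads in log2 ratios, and was tested on simulated data. The simulated counts were Poisson, with no spread between pools beyond counting error, so they do not show how the test behaves under such spread. Counting intervals are normal approximations on the log scale at 95%. Alternatives were DESeq2 1.42.0 size factors, total counts, other denominators and filters, the strand column, thinning and leaving out each replicate. Python 3.11.15, scipy 1.17.1, statsmodels 0.14.6, R 4.3.3 and RNAfold 2.7.2 were used. No comparison of conditions was possible with 1 group, and a genome sequence was not used here, so copies outside the RefSeq hairpins were not searched.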

Additional observations from a re-analysis of the deposited data

How the results depend on the processing

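Of 87 values recomputed under alternatives, 75 kept their direction and call or moved by less than the spread of the replicates, 11 moved further and 1 reversed. Part of the 75 was fixed in advance, so their number does not measure robustness. Leaving out 1 of 2 replicates always moves a mean by less than the SD. The strand column could not change shares among the members, which had no reads on the opposite strand. Leaving out mature sequences at 2 loci removed no gene from the family of Mir106b and Mir93. The added read does not enter the test. Per 1000000 reads of the whole library, the level was 5508 for Mir106b, 8218 for Mir93 and 432 for Mir25, and the 3 together made up 1.42%. Without the most abundant gene in the total, the levels were 15511, 23160 and 1222 CPM, and 3.99% together. With the strand column, Mir93 had 20761 CPM and the 3 together 3.58%. These 3 settings change the denominator. Without Mir92-1 and Mir92-2, whose main arm is at 2 loci, the share of Mir25 in its seed family was 3.30%. The log2 ratio of Mir93 was 0.0096 with DESeq2 size factors (exact binomial test, adjusted p = 0.326), where every log2 ratio shifted by 0.03, and its adjusted p lay between 0.000123 and 0.00952 under the other alternatives. The number of genes called lay between 212 and 240 with these other settings except the added read, which left it at 241. No paired analysis was possible because there is 1 group. Arms and isomiRs could not be separated, and spread among further pools cannot be judged from 2 libraries.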
